A study of Mus musculus with 18 samples.

Results

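The transition from the DN2 to the DN3 stage in the fetal thymus was examined with the 3 arrays of fetal DN3 cells and the 3 arrays of fetal DN2 cells, which are 6 of the 18 arrays of a series on early thymocytes. Both populations came from C57BL/6 embryos, for which the labels name no transgene, deletion or treatment. They were sorted from thymocytes negative for lineage markers, as CD25+ cells with little or no CD44 (fetal DN3) and as CD25+ cells with CD44 (fetal DN2). The labels place the fetal thymi at E14.5 and the methods a day later. RNA of 80000 cells per sample was amplified and hybridised to Affymetrix mouse arrays, and the material of several sorts was pooled for each array. Whether replicates of a group were biological, as labelled, or technical, as the methods have it, is not settled, and every p-value rests on the spread between such arrays. The adult DN3 and adult DN2 cells of C57BL/6 mice aged 4 to 6 weeks and the fetal early thymic progenitors (ETP), with 3 arrays each, are used for comparison below.

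At the DN2 stage thymocyte progenitors still carry the stem cell factor receptor Kit and the adhesion receptor CD44 and can give rise to a few other blood lineages. At the DN3 stage they are committed to the T lineage, cut and join the genes of the T cell receptor with the RAG recombinase, and test the product at the surface as the pre-T cell receptor, a β chain paired with the pre-Tα chain. Notch signals from the thymic stroma accompany both stages. In the fetus the same stages also yield waves of γδ T cells that the adult thymus does not make.

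The deposited values are log2 intensities from which the median of each probe set across all 18 arrays had been subtracted. A value of 0 is therefore the middle of the series and not the absence of a transcript, and all differences below compare arrays and hold no level. limma was fitted to the 18 arrays with one mean per group, and a probe set or gene was called when it differed by at least 1.8-fold with an adjusted p under 0.05 (Benjamini-Hochberg, 22626 probe sets). Of the probe sets 559 were called (2.47%), with 369 higher (1.63%) and 190 lower (0.84%) in fetal DN3 than in fetal DN2. With 1 probe set for each of the 12393 genes, 367 genes were called (2.96%), 244 of them higher (1.97%) and 123 lower (0.992%). The median difference was 2.14 log2 among the genes that rose and -2.25 log2 among those that fell, against -0.03 log2 over all genes. The arrays of the groups did not overlap for 242 of the 244 and for all 123, against 17.5% of all genes and 16.3% of all probe sets without overlap. The call itself used these arrays, so the large medians and the lack of overlap among called genes follow in large part from it. Quantile normalization of the arrays gave 474 higher and 373 lower probe sets, and a fit to the 9 fetal arrays alone 394 and 309, so that the excess of rises was smaller in both. With the replicate number as a block the 9 fetal arrays gave 515 higher and 448 lower probe sets and the 6 arrays alone 415 and 389, while the block in the fit to all 18 arrays gave 383 and 209. The count was 350 without fetal DN3 replicate 1 and 321 without fetal DN2 replicate 2.

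Several arrays stood apart in these genes. Fetal DN2 replicate 1 was the DN2 array closest to the fetal DN3 mean for 173 of the 244 genes that rose and for 82 of the 123 that fell, against 19 and 6 genes for fetal DN2 replicate 2. *Hbb-y*, a globin gene of embryonic red cells, stood at -0.07, 5.97 and 2.35 log2 in fetal DN3 and at 0.01, 4.53 and 2.85 log2 in fetal DN2. Its other probe sets, of cross-hybridising design, stood at -0.14, 11.08 and 10.53 and at -0.16, 11.22 and 10.57 log2 in fetal DN3. In fetal DN2 these stood at 0.05, 10.15 and 10.16 and at 0.12, 10.1 and 10.14 log2. The heme synthesis gene *Alas2* stood at -0.04, 3.77 and 6.4 log2 in fetal DN3 and 0.02, 0.0 and 5.07 log2 in fetal DN2. *Hbb-y* was thus raised in replicates 2 and 3 of both groups, and *Alas2* in the same arrays except fetal DN2 replicate 2. Among the adult arrays, which share the estimate of the spread, adult DN3 replicate 3 was the adult DN3 array closest to adult DN2 for 81 of the 123 genes that fell, and their median was -1.48, -1.21 and -0.43 log2 in the adult DN3 arrays. In bulk samples of this kind fewer cells of a type and less RNA per cell cannot be told apart.

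The 3 largest rises were in genes outside the T cell gene lists used below. *Pdlim4*, an adaptor of the actin cytoskeleton with a PDZ and a LIM domain, stood at 9.08, 9.02 and 8.71 log2 in fetal DN3 and at 0.02, 0.0 and -0.01 log2 in fetal DN2. *Fgfbp1*, a secreted carrier of fibroblast growth factors, stood at 8.93, 8.69 and 8.5 log2 in fetal DN3 and 0.02, 0.0 and 0.15 log2 in fetal DN2. *Dsc2*, a cadherin of desmosomes, stood at 8.01, 7.15 and 8.08 log2 in fetal DN3 and 0.17, 0.02 and 0.0 log2 in fetal DN2. *Dsc2* was called on 1 of its 2 probe sets, and the other differed by 0.37 log2 (limma adjusted p = 0.0541). On the probe sets taken for the 3 genes, every DN3 array lay far above every DN2 array, and the DN2 arrays differed from each other by little. The differences were 8.93 ± 0.07, 8.65 ± 0.08 and 7.68 ± 0.19 log2 (SE, limma adjusted p = 3.06e-17, 1.71e-16 and 1.94e-11). The spread was estimated over all 18 arrays, and outside fetal DN3 these genes lay near 0 with little spread, which makes the SE small. The SD within fetal DN3 was 0.2, 0.22 and 0.52 log2. In the limma fit to the 9 fetal arrays the adjusted p was 6.06e-08, 1.19e-07 and 1.29e-05. In *Pdlim4*, *Fgfbp1*, *Dsc2* and *Cd2* the DN2 values sat on a flat base near 0, as for 45 of the 244 genes that rose, whose 3 DN2 arrays all lay within 0.25 log2 of 0. Centred values do not show whether such a base lies at background.

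*Cntnap2*, a cell adhesion protein best known from axons, stood at 8.95, 8.83 and 9.01 log2 in fetal DN3 and at 3.62, -0.03 and 2.6 log2 in fetal DN2, with fetal DN2 replicates 1 and 3 well above replicate 2. It differed by 6.87 ± 0.63 log2 (SE, adjusted p = 2.56e-05), on 1 of its 3 probe sets. *Hdgfl3*, a growth factor related gene, differed by 7.6 ± 0.38 log2 and was called on all 3 of its probe sets. The matrix gene *Fbln2* differed by 6.51 ± 0.42 log2, *Phlda1* by 5.79 ± 0.6 log2, the scaffold gene *Card10* by 5.72 ± 0.6 log2, the ciliary gene *Drc1* by 5.57 ± 0.7 log2 and the protease gene *Adam19* by 5.54 ± 0.82 log2 (limma, adjusted p = 8.52e-07 to 0.00168). *Adam19* stood at 8.29, 8.3 and 8.44 log2 in fetal DN3 and at 5.16, 0.11 and 3.14 log2 in fetal DN2, the widest spread between DN2 arrays among these 15 genes, and its call was lost in the fit to the 6 arrays alone (adjusted p = 0.135) and with quantile normalization (0.226). The integrin gene *Itgae*, *Spib*, *Sh2d1a*, *Cd28* and *Cd2* complete the 15 and are described with their pathways below.

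**Figure D1:**
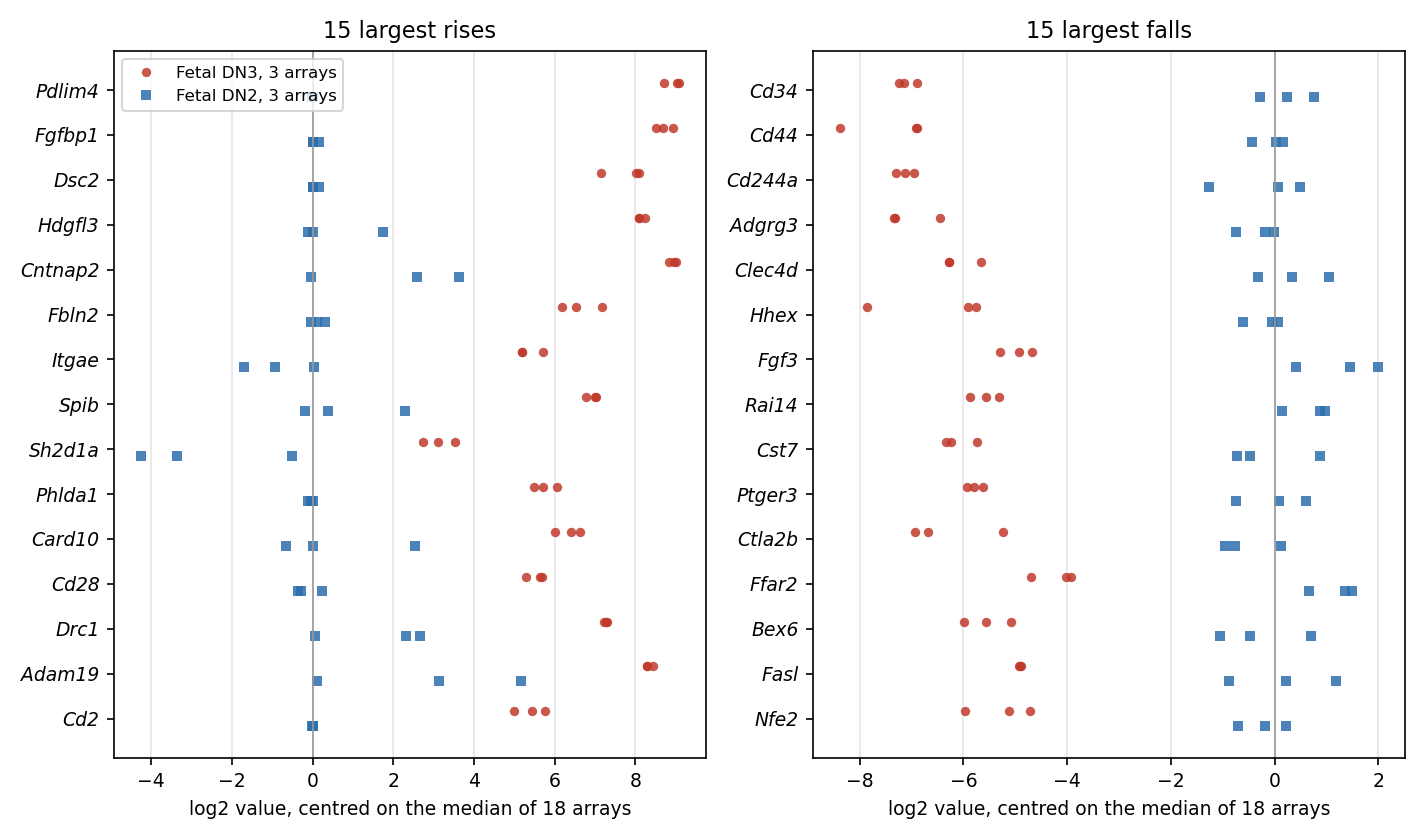
Centred log2 values (horizontal axis) of the 15 genes with the largest rises and the 15 with the largest falls between fetal DN3 (circles, 3 arrays) and fetal DN2 (squares, 3 arrays). The groups do not overlap in any of the 30 genes, and the DN2 arrays of *Cntnap2*, *Drc1* and *Adam19* spread over more than those of *Pdlim4* or *Cd2*.

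The sequences before the start sites of 4 genes that rose are shown because *Ptcra* and *Spib* are genes of the T lineage and *Pdlim4* and *Fgfbp1* rose in fetal cells and stayed flat in adult cells. Each is the 250 bases before the start of the gene in RefSeq (GRCm38.p6), given 5′ to 3′ on the strand of the gene. Capitals mark the E-box letters CANNTG and the letters TGGGAA of the core that RBPJ, the DNA-binding partner of Notch, reads.
Ptcra promoter, chr17:46763713-46763962, minus strand: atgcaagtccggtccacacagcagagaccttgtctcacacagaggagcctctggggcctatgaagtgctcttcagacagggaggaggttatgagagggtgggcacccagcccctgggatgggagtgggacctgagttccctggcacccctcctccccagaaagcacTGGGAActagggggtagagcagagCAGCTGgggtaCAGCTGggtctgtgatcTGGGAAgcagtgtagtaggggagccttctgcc
Spib promoter, chr7:44532072-44532321, minus strand: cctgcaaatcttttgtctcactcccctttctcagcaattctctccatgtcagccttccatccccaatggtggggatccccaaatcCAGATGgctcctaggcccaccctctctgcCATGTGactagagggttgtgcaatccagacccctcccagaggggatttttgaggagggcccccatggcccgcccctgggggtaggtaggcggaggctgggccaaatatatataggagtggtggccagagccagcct
Pdlim4 promoter, chr11:54069018-54069267, minus strand: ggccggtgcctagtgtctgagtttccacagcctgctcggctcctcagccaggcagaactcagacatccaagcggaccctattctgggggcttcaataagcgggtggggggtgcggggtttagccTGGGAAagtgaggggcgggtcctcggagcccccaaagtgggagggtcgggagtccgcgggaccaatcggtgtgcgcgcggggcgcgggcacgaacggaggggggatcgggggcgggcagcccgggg
Fgfbp1 promoter, chr5:43981800-43982049, minus strand: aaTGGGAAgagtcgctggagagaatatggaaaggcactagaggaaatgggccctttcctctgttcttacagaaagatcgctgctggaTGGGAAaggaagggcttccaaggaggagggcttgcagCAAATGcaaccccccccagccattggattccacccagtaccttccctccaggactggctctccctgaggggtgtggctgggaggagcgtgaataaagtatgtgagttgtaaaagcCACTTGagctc
The *Ptcra* stretch held 2 E-box matches and 2 matches of TGGGAA, that of *Spib* 2 and 0, that of *Pdlim4* 0 and 1, and that of *Fgfbp1* 2 and 2. Letters were searched on both strands, the TCF/LEF letters CTTTGA, the RUNX letters TGTGGT and the GATA letters AGATAA as well, and none of these 3 was found in the 4 stretches. CANNTG occurred in the stretches of 56.9% of the genes that rose with a RefSeq entry (188 of 244), 57.4% of those that fell (94 of 123) and 59.4% of all genes (9887 of 12393). TGGGAA occurred in 14.4%, 25.5% and 20.9%, TGTGGT in 7.98%, 17.0% and 11.3%, CTTTGA in 6.91%, 11.7% and 12%, and AGATAA in 4.79%, 8.51% and 7.17%. These shares are descriptions of letters and were not tested.

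The largest fall was that of *Cd34*, a sialomucin of stem and progenitor cells, which stood at -7.24, -6.9 and -7.14 log2 in fetal DN3 and at -0.28, 0.75 and 0.23 log2 in fetal DN2. *Cd44*, the adhesion receptor used for the sort, stood at -8.38, -6.91 and -6.89 log2 in fetal DN3 and -0.43, 0.17 and 0.03 log2 in fetal DN2. The arrays were far apart in both genes, and the differences were -7.33 ± 1.24 and -7.31 ± 1.36 log2 (SE, limma adjusted p = 0.00467 and 0.00877). The estimate of the spread also held the adult arrays, and in adult DN3 replicates 1, 2 and 3 stood at -7.19, -7.58 and -0.9 log2 in *Cd34* and -7.97, -7.84 and -0.86 log2 in *Cd44*. In the fit to the 9 fetal arrays the adjusted p of *Cd44* was 0.000203. Only 1 of the 2 probe sets of *Cd44* was called, and since CD44 set the gates, its fall is a check of the sort and no finding.

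Further receptor genes fell. The receptor genes *Cd244a* (-6.88 ± 1.1 log2), *Adgrg3* (-6.72 ± 1.4 log2), *Clec4d* (-6.43 ± 1.03 log2), *Ptger3* (-5.77 ± 0.84 log2), which encodes a prostaglandin E receptor, and *Ffar2* (-5.39 ± 0.68 log2), which encodes a receptor for short-chain fatty acids, were all lower in fetal DN3 (SE, limma adjusted p = 0.000467 to 0.019). *Fasl*, the death ligand of cytotoxic cells, stood at -4.93, -4.9 and -4.88 log2 in fetal DN3 and at -0.88, 1.18 and 0.22 log2 in fetal DN2. It differed by -5.08 ± 0.9 log2 (adjusted p = 0.00645). The growth factor gene *Fgf3* differed by -6.25 ± 1.05 log2, *Rai14* by -6.25 ± 0.78 log2, the cystatin gene *Cst7* by -5.99 ± 1.12 log2, *Ctla2b* by -5.76 ± 1.15 log2 and *Bex6* by -5.28 ± 1.15 log2 (adjusted p = 0.000436 to 0.0249). *Cd244a* and *Ffar2* were called on both of their probe sets. *Ptger3*, *Fasl*, *Fgf3* and *Rai14* were each called on 1 of 2, and the other differed by -0.05, -0.18, -0.85 and -0.03 log2. The remaining members of the 15, *Hhex* and *Nfe2*, belong to the progenitor genes below.

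Of the 10 sorting and surface markers, *Cd44* fell, against 0.992% of all genes, and the others were not called. *Kit*, the stem cell factor receptor, stood at -1.79, -1.91 and -2.44 log2 in fetal DN3 and at 0.26, 0.25 and -1.17 log2 in fetal DN2, without overlap, and differed by -1.82 ± 0.66 log2 (SE, limma adjusted p = 0.279). With the replicate number as a block in the fit to the 9 fetal arrays its adjusted p was 0.00782. *Il2ra*, which encodes the CD25 that both populations carry, stood at 0.75, 0.45 and -0.17 log2 in fetal DN3 and 0.95, 1.41 and 0.62 log2 in fetal DN2, and the arrays overlapped (-0.65 ± 0.77 log2, adjusted p = 0.773). *Thy1*, *Cd24a* and *Il7r* differed by 1.03 ± 0.68, 0.21 ± 0.19 and 0.6 ± 0.33 log2 (adjusted p = 0.773, 0.773 and 0.765). *Cd4*, *Cd8a* and *Cd8b1*, which mark the stage after the double negative cells, differed by -0.08, 0.24 and 0.12 log2 and were not called.

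Among 20 measured genes of the pre-T cell receptor and its proximal signalling 7 rose and none fell, against 1.97% and 0.992% of all genes, and their median difference was 0.76 log2. *Ptcra*, the pre-Tα chain, stood at 4.75, 4.98 and 4.58 log2 in fetal DN3 and at 2.72, 0.34 and 0.92 log2 in fetal DN2. The groups did not overlap, fetal DN2 replicate 1 lay closest to DN3, and the difference was 3.44 ± 0.67 log2 (SE, limma adjusted p = 0.0127). Its call was lost without fetal DN3 replicate 1 or 2 or fetal DN2 replicate 2 or 3 (adjusted p = 0.052, 0.0505, 0.0794 and 0.0588), in the fit to the 9 fetal arrays (0.0526) and with quantile normalization, where the difference was 2.0 log2.

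The kinase that reads the phosphorylated receptor chains rose more clearly. *Zap70* stood at 3.1, 3.32 and 3.86 log2 in fetal DN3 and at -0.47, -1.12 and -0.32 log2 in fetal DN2, a difference of 4.06 ± 0.31 log2 (adjusted p = 5e-06) on 1 of its 2 probe sets, and it was called under every alternative run. *Cd247*, the ζ chain on which Zap70 docks, stood at 0.89, 1.19 and 1.1 log2 in fetal DN3 and at -0.74, -2.33 and -1.45 log2 in fetal DN2 (2.57 ± 0.45 log2, adjusted p = 0.00555), and its call was lost in the fit to the 6 arrays (0.0559) and in that to the 9 fetal arrays with the replicate block (0.0521). The adaptor gene *Grap2* rose by 1.45 ± 0.26 log2 and the kinase gene *Prkcq* by 1.46 ± 0.24 log2 (adjusted p = 0.00639 and 0.00402). Of the CD3 chains, *Cd3d* differed by 2.84 ± 0.81 log2 (adjusted p = 0.0998), *Cd3e* by 1.75 ± 0.45 log2 (0.0606) and *Cd3g* by 0.33 ± 0.77 log2 (0.882), and none was called. With the replicate number as a block *Cd3e* was called (adjusted p = 0.0241). The scaffold gene *Lat* differed by 0.78 log2 (adjusted p = 0.306).

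The last members called in this list, *Cd2* and *Sh2d1a*, belong to costimulation. *Cd2*, an adhesion and costimulatory receptor of T cells, stood at 4.98, 5.43 and 5.75 log2 in fetal DN3 and at 0.02, 0.0 and -0.01 log2 in fetal DN2 (5.38 ± 0.13 log2, limma adjusted p = 1.94e-11). Its values outside fetal DN3 were flat as well, and in the fit to the 9 fetal arrays its adjusted p was 1.4e-05. *Cd28*, the costimulatory receptor, stood at 5.69, 5.3 and 5.63 log2 in fetal DN3 and 0.24, -0.29 and -0.36 log2 in fetal DN2 (5.68 ± 0.59 log2, adjusted p = 8.42e-05). *Sh2d1a*, the SAP adaptor of the SLAM receptors, stood at 3.12, 3.52 and 2.74 log2 in fetal DN3 and -0.52, -4.25 and -3.37 log2 in fetal DN2 (5.84 ± 0.65 log2, adjusted p = 0.000146), with DN2 replicate 1 again nearest to DN3. *Slamf1*, one of the receptors it serves, rose by 2.68 ± 0.27 log2 (adjusted p = 5.27e-05), on 1 of its 3 probe sets. Of the 10 genes of later thymocytes, 4 rose, against 1.97% of all genes. These were *Cd28*, *Slamf1*, the lipid kinase gene *Dgka* (1.65 ± 0.35 log2) and *Arpp21* (2.23 ± 0.52 log2, on 1 of its 3 probe sets). In the fit to the 9 fetal arrays 2 of the 10 were called, and *Dgka* and *Arpp21* were not (adjusted p = 0.062 and 0.0981).

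Of 11 genes of antigen receptor recombination and end joining 2 rose, against 1.97% of all genes. These were *Polm*, a polymerase of end joining, by 2.24 ± 0.27 log2 and *Xrcc6*, the Ku70 subunit that binds broken ends, by 1.51 ± 0.29 log2 (limma adjusted p = 0.000287 and 0.0108). *Rag1*, a subunit of the recombinase, stood at 2.59, 2.35 and 2.44 log2 in fetal DN3 and at 1.68, -0.09 and 0.93 log2 in fetal DN2. Its groups did not overlap, but its difference of 1.62 ± 0.43 log2 was not called (adjusted p = 0.0721). *Rag2* differed by 0.86 ± 0.32 log2 (adjusted p = 0.283) and was called in the fit to the 9 fetal arrays (0.0354). *Dntt*, the terminal transferase, stood at -5.75, -5.72 and -5.58 log2 in fetal DN3 and at -5.68, -5.69 and -5.71 log2 in fetal DN2, and differed by 0.01 ± 0.16 log2. It was flat in all 6 arrays as deposited, and quantile normalization alone gave it a difference of 1.74 log2.

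Of 30 T lineage transcription factors 4 rose, against 1.97% of all genes, and none fell, with a median of 0.48 log2. *Spib*, an Ets family factor, stood at 7.0, 6.77 and 7.03 log2 in fetal DN3 and at 2.28, -0.18 and 0.39 log2 in fetal DN2 (6.1 ± 0.6 log2, limma adjusted p = 4.66e-05). *Lef1*, an HMG box factor, stood at 6.0, 5.98 and 6.81 log2 in fetal DN3 and 3.88, 1.51 and 2.41 log2 in fetal DN2 (3.67 ± 0.59 log2, adjusted p = 0.00345). Its call was lost with quantile normalization (1.21 log2, adjusted p = 0.635), in the fit to the 6 arrays (0.072) and in that to the 9 fetal arrays with the replicate block (0.0504). *Ets1* rose by 3.14 ± 0.59 log2 on all 4 of its probe sets and *Ets2* by 2.77 ± 0.28 log2 (adjusted p = 0.00942 and 6.07e-05). *Spib*, *Ets1* and *Ets2* all encode Ets family factors. *Tcf12*, which encodes the E protein HEB, differed by 1.19 ± 0.3 log2 (adjusted p = 0.0529) and was called with the replicate number as a block (0.0463). The commitment factor gene *Bcl11b* stood at 1.34, 1.3 and 0.46 log2 in fetal DN3 and at 0.7, -0.92 and -0.5 log2 in fetal DN2, which overlap (1.27 ± 0.49 log2, adjusted p = 0.331). *Runx1* and *Gata3* differed by 1.18 and -0.59 log2 (adjusted p = 0.307 and 0.773).

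In the Notch pathway 1 of 26 genes rose, near the 1.97% of all genes, with a median of 0.1 log2. *Notch3*, a receptor, stood at 3.83, 3.18 and 3.18 log2 in fetal DN3 and at 0.29, 0.12 and -0.01 log2 in fetal DN2 (3.26 ± 0.67 log2, limma adjusted p = 0.0169), on 1 of its 2 probe sets. *Notch1*, the receptor that drives T lineage entry, differed by 1.4 ± 0.55 log2 (adjusted p = 0.349) and the target gene *Hes1* by 0.49 ± 0.42 log2 (0.773). *Dtx1*, another target, stood at 2.35, 2.21 and 2.26 log2 in fetal DN3 and at 0.99, 0.18 and 0.75 log2 in fetal DN2, without overlap, and its difference of 1.63 ± 0.52 log2 was not called (adjusted p = 0.164) but was in the fit to the 9 fetal arrays (0.00522).

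Of 26 stem and progenitor genes 6 fell, *Cd34* among them, against 0.992% of all genes, and none rose, with a median of -0.35 log2. *Hhex*, a homeobox factor of progenitors, stood at -7.86, -5.76 and -5.92 log2 in fetal DN3 and at -0.61, 0.07 and -0.05 log2 in fetal DN2 (-6.32 ± 1.38 log2, limma adjusted p = 0.0252), and its call was lost without any one of the 6 arrays (adjusted p = 0.0539 to 0.133). *Nfe2*, a bZIP factor of megakaryocytes and erythroid cells, fell by 5.04 ± 0.77 log2 (adjusted p = 0.00216). *Bcl11a*, a zinc finger factor of progenitors, stood at -3.3, -3.08 and -2.54 log2 in fetal DN3 and 0.02, 0.73 and 0.45 log2 in fetal DN2 (-3.38 ± 0.45 log2, adjusted p = 0.000775). *Mycn* fell by 2.25 ± 0.39 log2 and *Tal1*, a basic helix-loop-helix factor of blood stem cells, by 2.11 ± 0.32 log2 (adjusted p = 0.00571 and 0.00224). *Bcl11a* was called on 1 of its 2 probe sets, with -1.32 log2 on the other (adjusted p = 0.6), and *Mycn* on 1 of its 3. *Lyl1*, a relative of *Tal1*, stood at -4.2, -2.79 and -5.71 log2 in fetal DN3 and 0.08, 0.91 and 0.09 log2 in fetal DN2, and *Hoxa9* at -7.45, -7.41 and -7.36 log2 in fetal DN3 and -4.48, -2.82 and -3.6 log2 in fetal DN2. Both were without overlap and not called (adjusted p = 0.219 and 0.237), and both were called in the fit to the 9 fetal arrays (0.0166 and 0.00602). In that fit 9 genes of the list were called.

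Of 33 myeloid genes 2 fell, against 0.992% of all genes, and both encode signalling subunits of immunoreceptors. *Tyrobp* stood at -4.45, -3.56 and -3.29 log2 in fetal DN3 and at -0.43, 1.39 and 0.44 log2 in fetal DN2 (-4.23 ± 0.68 log2, limma adjusted p = 0.00322), and *Fcer1g* fell by 3.31 ± 0.42 log2 (0.000498). *Mpo*, the myeloperoxidase of granulocyte precursors, stood at -6.18, -6.09 and -6.12 log2 in fetal DN3 and -3.18, 1.23 and -0.1 log2 in fetal DN2 (-5.45 ± 1.39 log2, adjusted p = 0.0603, and 0.0302 in the fit to the 9 fetal arrays), and the DN2 arrays were far apart from each other. *Spi1*, the myeloid factor PU.1, differed by -2.26 ± 0.98 log2 (adjusted p = 0.457), with 2.47 log2 in fetal DN2 replicate 2 against -0.14 and -0.25 log2 in the other two. Of 17 genes of mast cells and megakaryocytes *Itga2b* fell by 2.19 ± 0.48 log2 (adjusted p = 0.0241), and the mast cell protease gene *Cpa3* differed by -4.23 ± 1.48 log2 (0.237) and was called in the fit to the 9 fetal arrays (0.00602).

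Of 22 genes of NK cells and innate lymphocytes 2 fell, against 0.992% of all genes. *Gzmb*, a granzyme, stood at 0.08, 0.49 and -0.08 log2 in fetal DN3 and at 3.17, 4.47 and 4.04 log2 in fetal DN2 (-3.73 ± 0.57 log2, limma adjusted p = 0.00201). *Zbtb16*, the factor PLZF of innate-like lymphocytes, stood at -0.06, 0.01 and 0.03 log2 in fetal DN3 and at 1.59, 1.47 and 1.53 log2 in fetal DN2 (-1.54 ± 0.14 log2, adjusted p = 3.34e-05), on both of its probe sets. The DN3 arrays of both genes lay together near 0 and below every DN2 array. Among 8 genes of γδ T cells 1 rose and 1 fell, against 1.97% and 0.992% of all genes. *Zbtb16* fell, and *Trgv4*, a variable segment of the γ chain locus, rose by 4.27 ± 0.31 log2 (adjusted p = 2.44e-06). The rise of *Trgv4* was called on 1 of its 3 probe sets, while the others differed by -0.7 and -0.57 log2. On the same probe set *Trgv4* was also called higher in adult DN3 than in adult DN2, by 6.36 log2 (limma adjusted p = 2.79e-07). The fetal minus the adult step was -2.09 log2 and was not called (limma interaction, adjusted p = 0.0555). *Trgv1* stood at 2.01, 1.84 and 1.16 log2 in fetal DN3 and -1.16, -2.31 and -2.06 log2 in fetal DN2 (3.52 ± 0.98 log2, adjusted p = 0.091) and was called in the fit to the 9 fetal arrays (0.0137) and with quantile normalization (0.0114). The segments of this locus are alike in sequence, so that a probe set may read more than one of them.

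No gene of DNA replication or of mitosis was called between the stages, with 3 arrays each. By DNA content the study reported a lower share of fetal DN3 than of fetal DN2 cells in S, G2 or M phase. Of 33 replication genes none was called, with a median of -0.08 log2 and 0 at an unadjusted limma p under 0.05, while the one-way test on the 6 arrays gave 1. Of 32 genes of mitosis and the spindle none was called, with a median of -0.03 log2, 2 at an unadjusted limma p under 0.05 and 3 by the one-way test. Among regulators of the cycle 4 of 30 rose and 2 fell, against 1.97% and 0.992% of all genes. Across the alternatives run 2 to 7 of the 30 were called. *Cdkn2c*, the inhibitor p18 of the D-type cyclin kinases, stood at 0.54, -0.04 and -0.54 log2 in fetal DN3 and at -2.34, -3.44 and -3.22 log2 in fetal DN2 (2.98 ± 0.41 log2, adjusted p = 0.000831). *Btg1*, an antiproliferative gene, rose by 2.19 ± 0.26 log2 on both of its probe sets, and *Mxd4* and *Mxi1*, which compete with Myc for its partner Max, rose by 1.9 ± 0.44 and 1.14 ± 0.2 log2 (adjusted p = 0.0339 and 0.00649). *Cdkn1a*, the inhibitor p21, fell by 1.8 ± 0.41 log2 (adjusted p = 0.0298), *Mycn* fell, and *Myc* differed by 0.23 log2 (0.842). *Btg2* differed by 2.91 log2 on the probe set taken (adjusted p = 0.14), which was called with the replicate number as a block (0.0312). Its other probe set was called higher without the block (2.73 log2, adjusted p = 0.0079). The inhibitor genes *Cdkn2c* and *Cdkn1a* moved in opposite directions.

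Of 32 adhesion and migration genes 5 rose and 1 fell, against 1.97% and 0.992% of all genes. *Itgae*, the αE integrin that binds E-cadherin, stood at 5.72, 5.18 and 5.19 log2 in fetal DN3 and at 0.04, -1.71 and -0.93 log2 in fetal DN2 (6.24 ± 0.4 log2, limma adjusted p = 8.22e-07). *Cdh1*, E-cadherin itself, rose by 2.49 ± 0.47 log2 (adjusted p = 0.00985). *Ccr9*, the receptor for the thymic chemokine CCL25, stood at 1.9, 1.77 and 1.75 log2 in fetal DN3 and -2.69, -2.56 and -2.12 log2 in fetal DN2 (4.26 ± 0.6 log2, adjusted p = 0.00111). *Nrp1*, a semaphorin receptor, rose by 3.33 ± 0.54 log2 on all 3 of its probe sets and the chemokine receptor gene *Cxcr3* by 1.81 ± 0.32 log2. The tetraspanin gene *Cd9* fell by 3.15 ± 0.55 log2 (adjusted p = 0.00557). Beside the list, *Dsg2* and *Dsp*, which encode a desmosomal cadherin and the desmosome plaque protein and were chosen after their values were seen, rose by 3.61 ± 0.31 and 3.13 ± 0.4 log2 (adjusted p = 1.29e-05 and 0.000493), as did *Dsc2* above. *Dsp* stood at 7.55, 6.86 and 7.62 log2 in fetal DN3 and 4.85, 3.5 and 4.29 log2 in fetal DN2.

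In the remaining lists the calls are to be read against the 1.97% of all genes that rose and the 0.992% that fell. In interleukin-7 and common γ chain signalling *Il21r* rose by 1.47 ± 0.33 log2 and 20 of 21 genes were not called. Among 17 genes of survival and death the p53 target gene *Trp53inp1* rose by 1.94 ± 0.28 log2 (limma adjusted p = 0.00149). *Bcl2l11*, which encodes the death protein Bim, differed by 2.4 ± 0.62 log2 on the probe set taken (adjusted p = 0.0645), while 2 of its other probe sets were called higher. Of 20 genes of glycolysis *Ldhb* rose by 2.45 ± 0.3 log2 on all 4 of its probe sets and *Bnip3*, a hypoxia target, fell by 3.07 ± 0.45 log2 (adjusted p = 0.00035 and 0.00161). Among 27 interferon response genes *Ifi204* rose by 4.91 ± 0.89 log2 and *Ifngr1*, a receptor chain, by 1.04 ± 0.2 log2, and *Tgfbr1* was the gene called of 23 in BMP and TGF-β signalling (0.87 ± 0.2 log2, adjusted p = 0.0381). None of 25 ribosome biogenesis, 18 cholesterol synthesis and 12 MHC class II genes was called by limma in the fit to all 18 arrays, with 1, 3 and 1 at an unadjusted p under 0.05 and 3, 2 and 1 by the one-way test, and 1 MHC class II gene was called in the fit to the 9 fetal arrays.

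**Figure D2:**
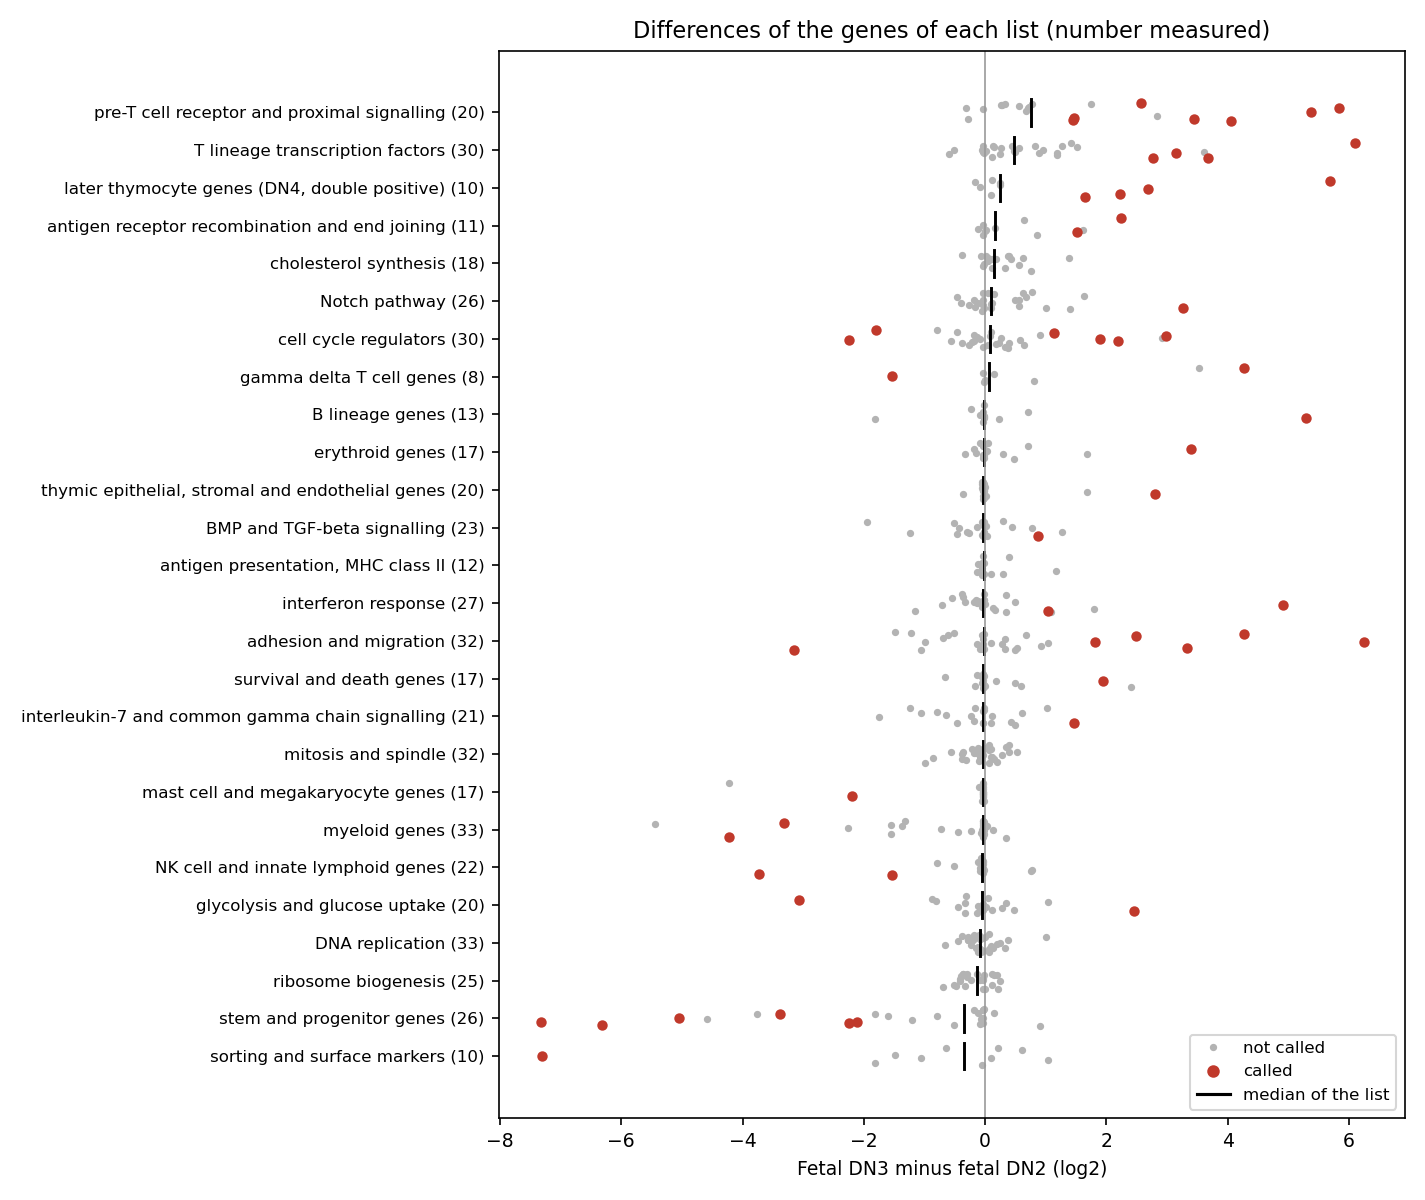
Difference between fetal DN3 and fetal DN2 (horizontal axis, log2) of each measured gene in 26 gene lists, with called genes in red and the median of each list as a bar. The medians run from -0.35 log2 for the stem and progenitor genes and the surface markers to 0.76 log2 for the pre-T cell receptor genes.

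Markers of cells outside the T lineage were read in the same arrays. Calls among them are to be read against the 1.97% of all genes that rose. Of 17 erythroid genes *Gata1* rose. *Gata1* stood at 5.23, 4.75 and 4.13 log2 in fetal DN3 and at 1.55, 1.3 and 1.09 log2 in fetal DN2 (3.39 ± 0.3 log2, limma adjusted p = 1.74e-05). *Hbb-y* and *Alas2* stood near 0 in replicate 1 of both groups, and the relation of *Gata1* to these genes was not tested. The summed value of the erythroid list ranged from 4.63 to 15.11 log2 in fetal DN3 and from 1.28 to 9.64 log2 in fetal DN2, and 10 of its genes, *Klf1* and *Hba-a1* among them, lay within 0.2 log2 of 0 in all 6 arrays. The myeloid list summed to -26.38 to -21.95 log2 in fetal DN3 and -10.0 to 8.38 log2 in fetal DN2, with 18 of 33 genes within 0.2 log2 of 0, and its part in the other falls was not tested. Of 13 B lineage genes *Ighm* rose, at -1.21, -1.26 and -0.99 log2 in fetal DN3 and -6.42, -6.45 and -6.46 log2 in fetal DN2 (5.29 ± 0.23 log2, adjusted p = 1.12e-08), on 2 of its 11 probe sets, while *Cd79a* and *Pax5* stayed within 0.2 log2 of 0. Of 20 epithelial, stromal and endothelial genes *Epcam*, an adhesion protein of epithelia, rose by 2.8 ± 0.6 log2 (adjusted p = 0.023), and 17, with *Foxn1*, *Krt8* and *Pecam1* among them, lay within 0.2 log2 of 0.

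The step was set against the same step in adult cells, which shares no array with it but shares the estimate of the spread. In adult cells 135 of the 12393 genes were called (1.09%). Of the 95 genes higher in adult DN3 than in adult DN2, 49 were called higher in fetal DN3 (51.6%, against 1.97% of all genes), none was called lower, and 84 had a positive difference. The median over the 95 genes was 1.52, 1.47 and 1.22 log2 in the fetal DN3 arrays and 0.02, -0.09 and -0.05 log2 in the fetal DN2 arrays. Of the 40 genes lower in adult DN3, 10 were called lower in fetal DN3 (25%, against 0.992% of all genes), none higher, and 35 had a negative difference. Their median was -0.6, -0.5 and -0.74 log2 in the fetal DN3 arrays and -0.04, 0.21 and 0.06 log2 in the fetal DN2 arrays. The fetal DN3 arrays lay apart from the fetal DN2 arrays in both sets, and no gene was called in opposite directions at the 2 ages. Among the genes described above, *Lef1*, *Cd28* and *Ptcra* were called higher in adult DN3 as well, by 7.07, 6.45 and 4.81 log2 (limma adjusted p = 6.77e-05, 0.000141 and 0.00401).

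**Figure D3:**
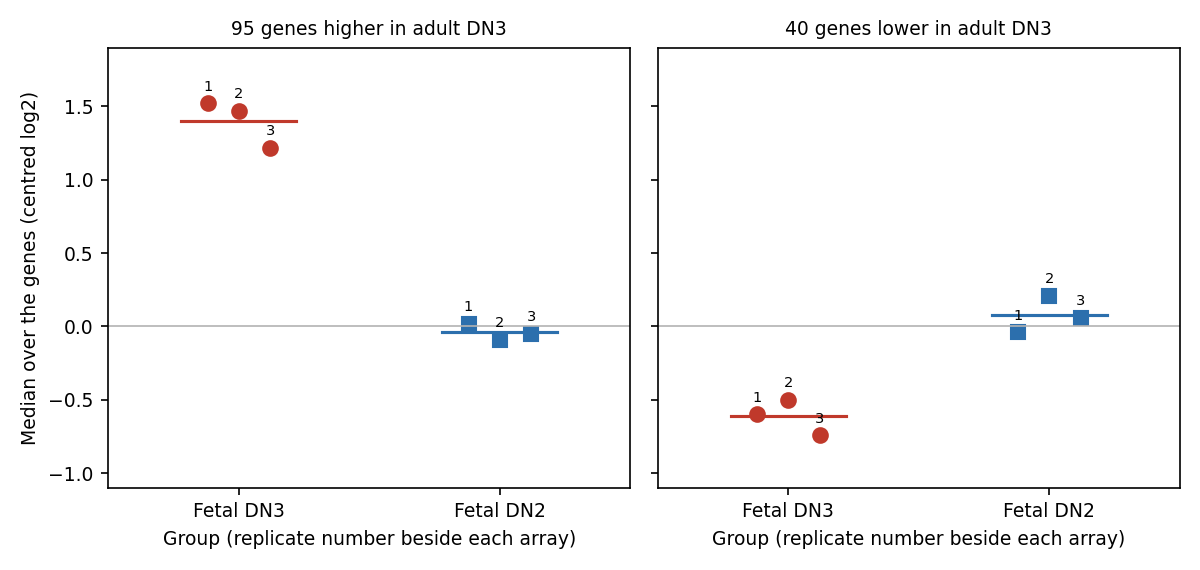
Median centred log2 value (vertical axis) of the genes called between adult DN3 and adult DN2, in each array of fetal DN3 and fetal DN2, with the replicate number beside each point and the mean of the 3 medians as a line. For the 95 genes higher in adult DN3 the fetal DN3 arrays lie at 1.22 to 1.52 log2, and for the 40 lower genes at -0.74 to -0.5 log2.

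The test of the difference between the fetal and the adult step, the interaction of limma, called 88 genes (0.71%), of which 59 had the more positive and 29 the more negative step in fetal cells. Over probe sets 79 were more positive and 45 more negative, but 294 and 307 with array weights, so that the excess of positive differences did not hold there. Of the 88 genes, 66 were called in fetal cells and not in adult cells, 10 in adult cells and not in fetal cells, 3 in both and 9 in neither. *Pdlim4*, *Fgfbp1* and *Dsc2* differed by 0.0, -0.03 and -0.06 log2 in adult cells, and their steps exceeded the adult ones by 8.94, 8.68 and 7.74 log2 (adjusted p = 2.72e-15, 1.45e-14 and 1.51e-09). *Cd2* was likewise flat in adult cells, at -0.13, -0.01 and -0.01 log2 in adult DN3 and -0.07, 0.01 and -0.01 log2 in adult DN2, with an excess of 5.41 log2 (adjusted p = 1.51e-09). *Cntnap2* (6.01 log2), *Ighm* (5.25 log2), *Apoe*, a lipid carrier (4.37 log2), *Pparg*, a lipid-sensing nuclear receptor (4.36 log2), the sulfatase gene *Arsi* (4.32 log2) and *Itgae* (4.23 log2) followed (adjusted p = 9.41e-07 to 0.00511). *Pparg* stood at 6.38, 6.64 and 6.26 log2 in fetal DN3 and 2.2, 1.49 and 1.64 log2 in fetal DN2, and all 6 adult DN3 and DN2 arrays lay between -0.24 and 0.74 log2. *Ighm* was high in both adult groups, at 0.99, 2.08 and 1.69 log2 in adult DN3 and 1.63, 1.38 and 1.6 log2 in adult DN2.

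In the other direction the step was larger in adult cells for *Id3*, an inhibitor of E proteins. *Id3* stood at 0.23, 0.97 and 0.01 log2 in fetal DN3 and -0.02, -0.03 and -0.05 log2 in fetal DN2, against 4.99, 6.24 and 5.2 log2 in adult DN3 and 0.71, 0.12 and -0.03 log2 in adult DN2. The fetal minus the adult step was -4.78 log2 (limma interaction, adjusted p = 4.98e-05). *Scel*, *Syne2*, a protein of the nuclear envelope, *Lgalsl* and *Bcat1*, an enzyme of branched-chain amino acids, were likewise called higher in adult DN3 and not called in fetal cells, with fetal minus adult steps of -4.69, -3.1, -3.1 and -2.82 log2. *Cdkn1a* fell in fetal cells and differed by 1.5 log2 in adult cells (adjusted p = 0.105), a change of -3.3 log2 between ages (interaction adjusted p = 0.018). *Morc4*, *B3gnt5*, *Nfix* and *Ppic* fell in fetal DN3 by 3.14, 4.06, 3.64 and 3.56 log2 and were not called in adult cells, with interactions of -3.01, -2.97, -2.83 and -2.67 log2 (adjusted p = 0.00776 to 0.048). With the replicate number as a block the interactions of *Morc4*, *Nfix*, *Bcat1*, *Ppic* and *Fbln2* were lost (adjusted p = 0.0599 to 0.0795). These 5 and those of *Cdkn1a*, *Lgalsl* and *Dsp* were also lost without at least 1 of the 12 arrays (0.0501 to 0.15).

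**Figure D4:**
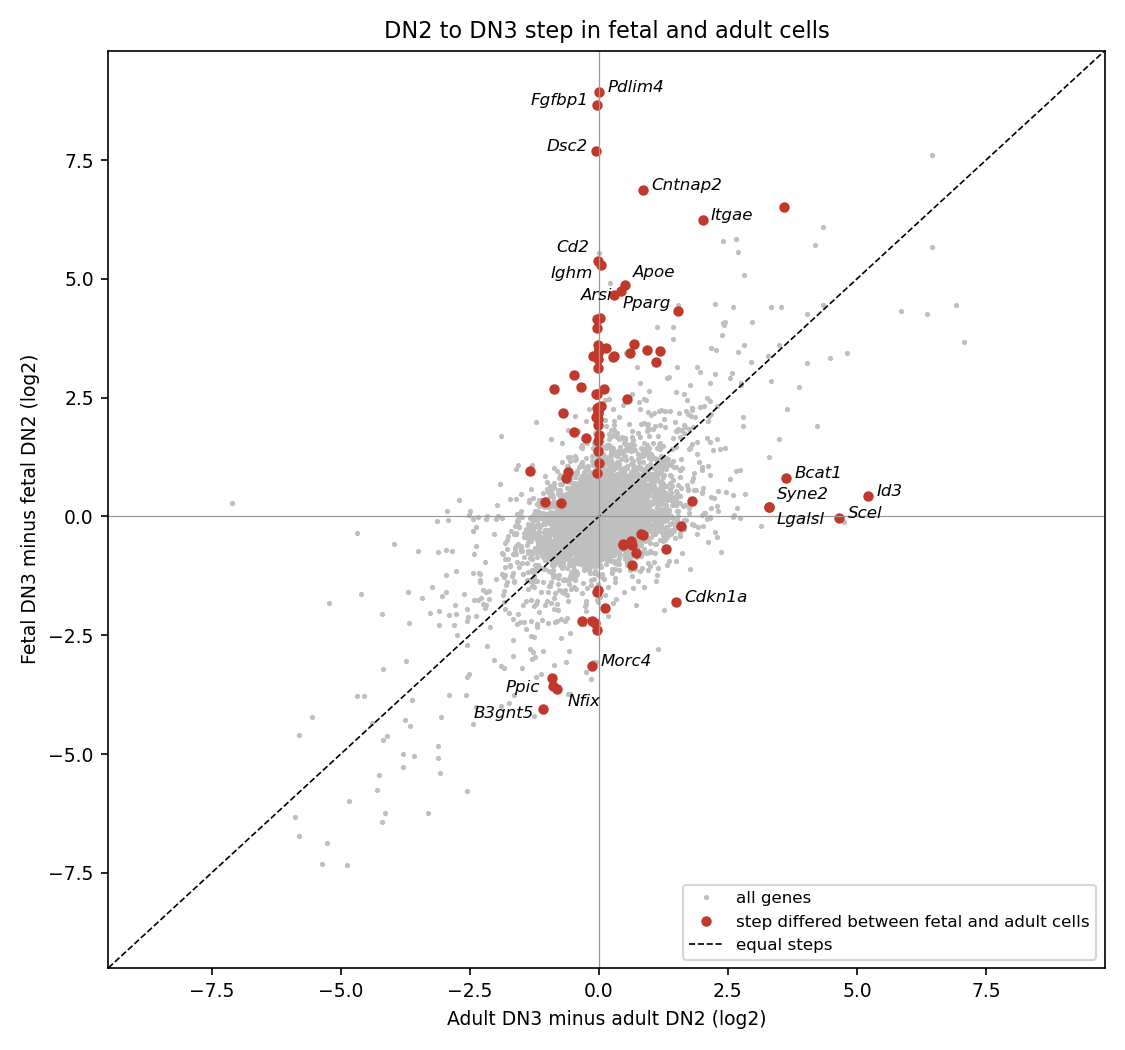
Fetal DN3 minus fetal DN2 (vertical axis, log2) against adult DN3 minus adult DN2 (horizontal axis, log2) for 12393 genes, with the 88 genes whose step differed between the ages in red and the 20 with the largest differences named. *Pdlim4*, *Fgfbp1* and *Dsc2* lie high on the vertical axis and *Id3* and *Scel* far out on the horizontal axis.

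The stages before and beside the step were set next to it without a test of overlap, since the fetal ETP to DN2 step shares the fetal DN2 arrays. Of the named genes that rose at DN3, *Ptcra*, *Cd247* and *Lef1* had already been called higher in fetal DN2 than in fetal ETP, by 4.97, 3.37 and 4.93 log2 (limma adjusted p = 0.00177, 0.00143 and 0.000679), as had *Grap2* (1.62 log2), *Dgka* (2.08 log2), *Nrp1* (3.7 log2), *Epcam* (3.52 log2), *Pparg* (1.9 log2) and *Dsp* (1.91 log2). In the opposite direction *Ighm*, *Itgae* and *Cxcr3*, which rose at DN3, were called lower in fetal DN2 than in fetal ETP, with differences of -4.32, -1.96 and -1.56 log2. *Zbtb16*, which fell at DN3, was called higher there (0.86 log2), and *Mycn* and *Tal1* were called lower at both steps (-2.0 and -2.47 log2 between fetal DN2 and fetal ETP). The same earlier step held calls for *Cd3d* (5.23 log2), *Cd3e* (3.06 log2) and *Bcl11b* (2.49 log2), which were not called between fetal DN3 and fetal DN2. *Zap70*, *Cd28* and *Notch3* differed by 0.5, 0.16 and 0.14 log2 between fetal DN2 and fetal ETP and were not called there. *Il2ra* was higher in fetal DN2 than in fetal ETP by 5.34 log2 (adjusted p = 0.00287). *Cd34* and *Cd44*, which fell at DN3, differed by -2.38 and -2.03 log2 between fetal DN2 and fetal ETP (adjusted p = 0.951 for both). *Gata1* averaged 0.33 log2 in fetal ETP and did not rise in adult cells, where the step was -0.03 log2 (interaction 3.41 log2, adjusted p = 0.00118).

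**Figure D5:**
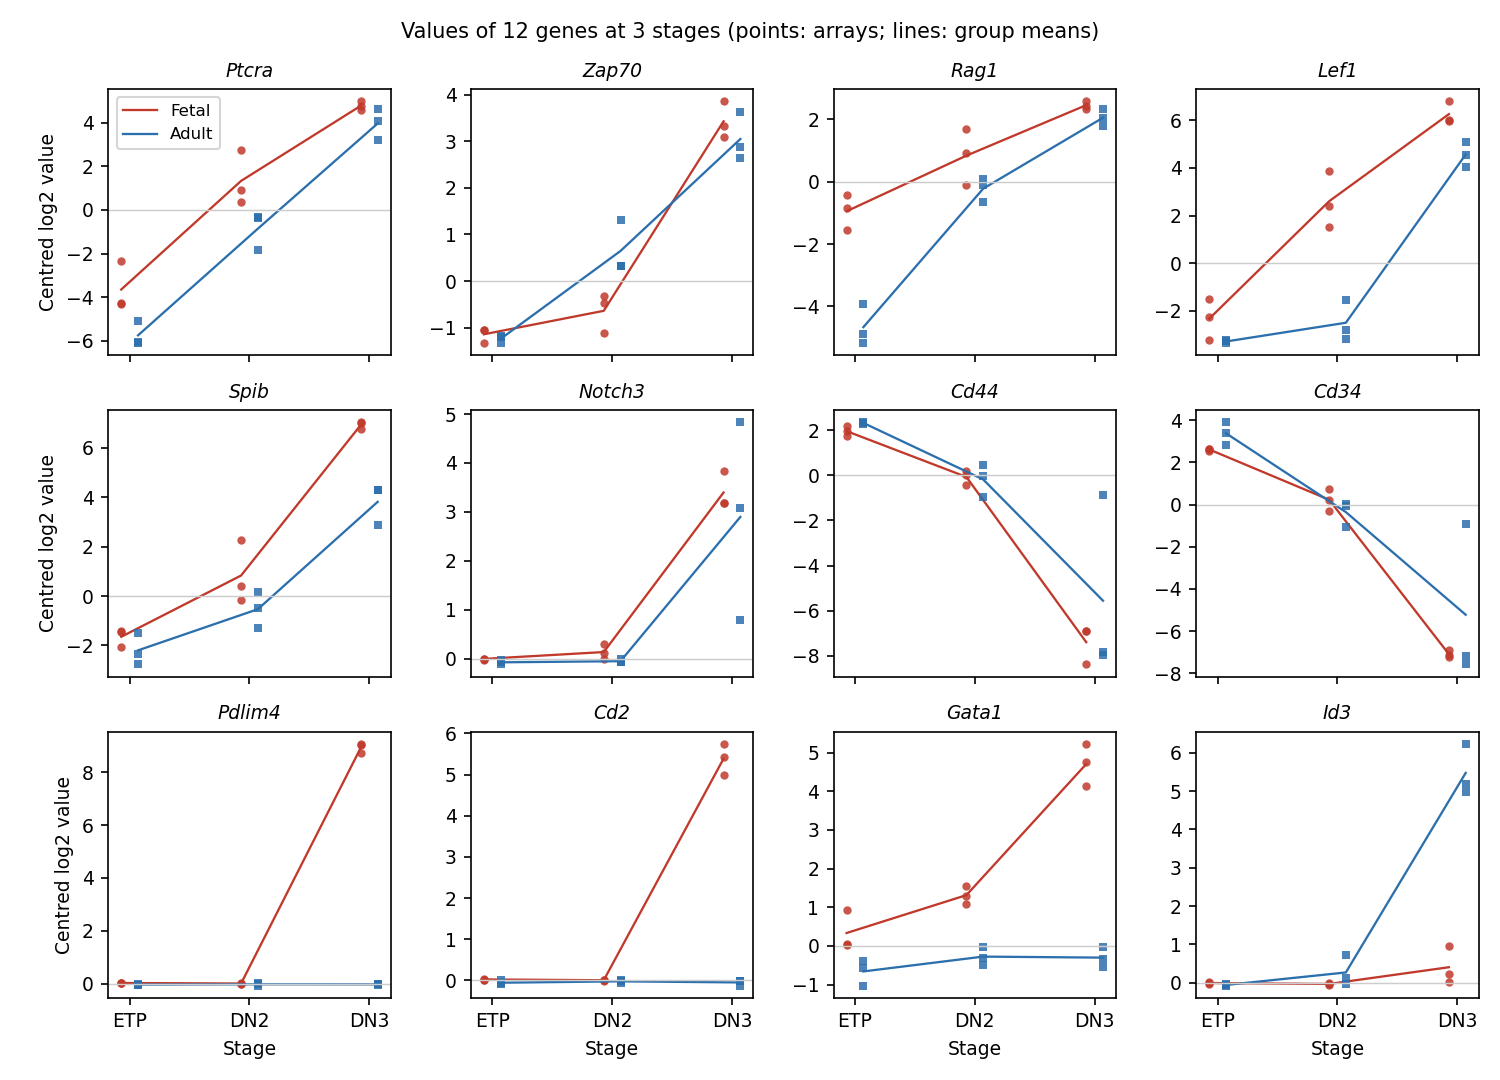
Centred log2 values (vertical axis) of 12 genes at the ETP, DN2 and DN3 stages (horizontal axis) in fetal (circles) and adult (squares) cells, with 3 arrays per point group and lines through the group means. *Ptcra* and *Lef1* climb through all fetal stages, *Zap70* and *Notch3* at DN3, *Pdlim4*, *Cd2* and *Gata1* in fetal cells and *Id3* in adult cells, and adult DN3 replicate 3 stands above the other adult DN3 arrays in *Cd44* and *Cd34*.

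Of the 82 genes called and named here, 62 stayed called when any one of the 6 fetal arrays was left out. Without fetal DN3 replicate 1 the calls of 17 were lost (adjusted p up to 0.186), and without fetal DN2 replicate 2 those of 18 (up to 0.195), against 3 without fetal DN2 replicate 1. The 20 genes that lost a call without at least 1 array were *Cd44*, *Ptcra*, *Xrcc6*, *Ets1*, *Notch3*, *Hhex*, *Itga2b*, *Dgka*, *Arpp21*, *Mxd4*, *Cdkn1a*, *Il21r*, *Cdh1*, *Ifngr1*, *Tgfbr1*, *Epcam*, *Adgrg3*, *Cst7*, *Ctla2b* and *Bex6*. Quantile normalization ended the calls of *Ptcra*, *Lef1*, *Nrp1*, *Cdh1*, *Ifi204*, *Tgfbr1*, *Epcam*, *Adam19*, *Dsg2* and *Dsp*, and the fit to the 9 fetal arrays with the replicate block those of *Ptcra*, *Cd247*, *Lef1*, *Dgka*, *Mxd4*, *Il21r*, *Ifngr1* and *Epcam*. In none of the alternatives run did the difference of a named gene that was called change its sign.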

How the data were processed

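The authors hybridised the 18 arrays (6 groups of 3) and deposited GCRMA values on the log2 scale, normalized in GeneSpring GX and centred per probe set. The scale was taken as log2 because the widest span of a probe set, 12.95, exceeds the natural log range of a 16-bit scanner, 11.09. Signal over background is not given in the sources used here, and the 3 arrays per group limit the precision.

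Probe sets were named from the platform annotation, with 20380 naming 1 gene, 691 several and 1555 none. A gene with several probe sets (4956 of 12393) was represented by 1, avoiding cross-hybridising designs and then taking the largest SD over all arrays. Where no number of probe sets is given for a gene, its call refers to the probe set taken and not to any others. Differences came from limma 3.58.1 in R 4.3.3, fitted to all 18 arrays without a block, and errors are its SE. The methods filtered probes on intensity, took changes of 1.8-fold between any pair of conditions and ran an analysis of variance over those subsets. Centred values do not allow that filter, and a one-way test of the 6 arrays with the same fold limit was run as an alternative in its place. The script was tested on simulated data. Genes named were the 15 largest called rises and falls without overlap, the 10 largest called interactions each way, sorting markers, and members used to describe a list, with called members first. The members and lists were chosen with earlier results of these data known. Genes of the lists with no probe set of their own were not analysed here.

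The replicate numbers paired the fetal arrays, since deviations from the group means correlated at r = 0.466, 0.424 and 0.528 within a number and at -0.334 to -0.074 between numbers, over all probe sets. The deviations of a group sum to 0, so values between numbers must be negative on balance when those within are positive. The main calls come from the fit without a block and do not use this pairing. Alternatives were the block, the samples in the fit, array weights, centring, quantile normalization, the fold limit, the filter, the prior, and leaving out single arrays. Each fetal DN2 and DN3 array was left out for the fetal step, and each fetal and adult DN2 and DN3 array for the interaction. No single adult array was left out for the fetal step, and no single ETP array for either.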

Additional observations from a re-analysis of the deposited data

Results flagged for a closer look

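The results below stand out because the step from DN2 to DN3 differed between fetal and adult cells in a test of the difference itself (limma interaction over all 18 arrays, adjusted p under 0.05). Values are the fetal step minus the adult step. The step was more positive in fetal cells for *Pdlim4* (8.94 log2), *Fgfbp1* (8.68 log2), *Dsc2* (7.74 log2), *Cntnap2* (6.01 log2), *Cd2* (5.41 log2), *Ighm* (5.25 log2), *Apoe* (4.37 log2), *Pparg* (4.36 log2), *Arsi* (4.32 log2) and *Itgae* (4.23 log2). It was also more positive for *Dsg2* (3.62 log2), *Cdkn2c* (3.46 log2), *Gata1* (3.41 log2), *Dsp* (3.15 log2), *Fbln2* (2.92 log2), *Slamf1* (2.58 log2) and *Polm* (2.26 log2).

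It was more negative in fetal cells for *Id3* (-4.78 log2), *Scel* (-4.69 log2), *Cdkn1a* (-3.3 log2), *Syne2* (-3.1 log2), *Lgalsl* (-3.1 log2), *Morc4* (-3.01 log2), *B3gnt5* (-2.97 log2), *Nfix* (-2.83 log2), *Bcat1* (-2.82 log2), *Ppic* (-2.67 log2) and *Zbtb16* (-1.53 log2). Of these 28 genes 13 were called under all alternatives run for the interaction, namely *Apoe*, *Arsi*, *Cd2*, *Cdkn2c*, *Dsc2*, *Fgfbp1*, *Id3*, *Ighm*, *Pdlim4*, *Pparg*, *Scel*, *Syne2* and *Zbtb16*.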

How the results depend on the processing

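No difference of a named gene changed sign while called under any alternative run. The 559 probe sets called between fetal DN3 and fetal DN2 were 592 with the replicate number as a block, of which 534 were shared, and the block lost no call of the 82 named genes and added *Cd3e*, *Tcf12* and *Btg2*. The count was 963 in the fit to the 9 fetal arrays with the block (515 higher and 448 lower) and 847 with quantile normalization (474 higher and 373 lower, against 369 and 190). A one-way test on the 6 arrays gave 1089 without adjustment and 123 after it. With 1 fetal DN2 or DN3 array left out the count ran from 321 to 553. Leaving out a replicate number from both fetal groups, an alternative chosen after seeing the data, gave 366, 259 and 306 for numbers 1, 2 and 3. Centring, array weights, the prior, the fold limit, the filter on flat probe sets and the other fits to 6 or 9 arrays gave 380 to 804. The 124 interactions were 113 with the block and 601 with array weights (294 more positive and 307 more negative, against 79 and 45), and ran from 85 to 167 with 1 array left out. The cause of these shifts was not tested. Of the 82 named genes called, 38 were called under all 18 alternatives. Centred values hold no level, so a gene near 0 in both groups may be absent or evenly present.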
